A study of Mus musculus with 6 samples.

Results

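The Rab GTPase genes were examined in fully grown mouse oocytes arrested at the germinal vesicle stage. Members were all rows of the deposited count table whose symbol is Rab followed by digits and at most 1 further letter, and 58 of 24369 rows met that rule. Of these, 48 had enough counts to be tested, among 14124 tested genes. The 6 RNA sequencing libraries formed 3 groups of 2. These were oocytes with Sudan I exposure and melatonin, oocytes with Sudan I exposure alone, and control oocytes. Sudan I is a synthetic azo dye, and melatonin is a hormone of the pineal gland. The labels give no dose, route, duration, strain or age for any group, and melatonin was not given without Sudan I in these libraries. Nor do they state the animals or pools behind each library, so p-values measure the spread between these samples alone, which may be technical.

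Rab proteins are small GTPases that switch between a GTP-bound form on membranes and a GDP-bound form in the cytosol. Each marks certain compartments of the cell and recruits effectors such as tethers, motors and lipid kinases. Exchange factors load the GTP, GTPase-activating proteins end the signal, and a prenyl tail, handled by an escort protein and GDP dissociation inhibitors, anchors the protein. In mouse oocytes, Rab11a vesicles are known to carry actin nucleators and the motor myosin Vb, and Rab3a and Rab27a are known for their part in cortical granule movement and release.

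Library totals ranged from 20669373 to 26065453 counts, and Rab rows held 0.366% to 0.375% of the counts of each library. The 12 oocyte markers summed to between 25460 and 28420 CPM per library, where CPM are counts scaled to a common library size. The 20 cumulus and granulosa markers summed to 666 to 788 CPM, none of them at 0 in all libraries, with the highest value in melatonin library 2. The 4 most abundant, Serpine2, Nr5a2, Esr2 and Gata4, carried most of that sum, at 537 to 596 CPM together. The other 16 markers summed to 97.7 and 251 CPM with melatonin, 141 and 81.2 CPM with Sudan I, and 127 and 137 CPM in control, and 8 of the 16 were highest in melatonin library 2. Among them Amh stood at 5.24 and 21.7 CPM with melatonin, 7.87 and 6.85 CPM with Sudan I, and 19.2 and 21.2 CPM in control. Amh was picked after its values were seen, and the 16 did not all go its way. Inha, Foxl2 and Wt1 were also lower in both Sudan I libraries than in both control libraries. Cyp19a1 was higher in both, and for the rest the Sudan I and control libraries overlapped. The 8 theca and stroma markers summed to at most 3.85 CPM, and the 6 blood and immune markers to at most 1.504 CPM, with Hba-a1 and Hbb-bs at 0. The 5 neuron markers summed to 273 to 317 CPM, most of it Tubb3. The part of other cells in any Rab value was not tested. In RNA from whole samples, fewer cells of a type and less RNA per cell cannot be told apart.

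The total of Rab RNA did not differ between groups beyond the spread of their libraries. Rab counts summed to 3829 and 3627 CPM in the Sudan I plus melatonin libraries, 3728 and 3614 CPM in the Sudan I libraries, and 3736 and 3637 CPM in the control libraries. The group means were 3728 ± 143 CPM with melatonin, 3671 ± 80.8 CPM with Sudan I and 3687 ± 70.2 CPM in control (SD, n = 2 each). That RNA was spread unevenly over the family. To compare genes, levels were divided by the length of each gene's merged exons and are given as CPM per kb. The median tested Rab gene stood at 9.41 CPM per kb, and the median of the 14003 tested genes with a known length at 4.04. Of the 48 tested Rab genes, 29 lay above that median of all genes, and 11 were among the highest 10%, above 38.1 CPM per kb. The 5 highest, Rab7, Rab38, Rab5c, Rab3d and Rab11a, held 49.0% of the summed Rab level.

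**Figure D1:**
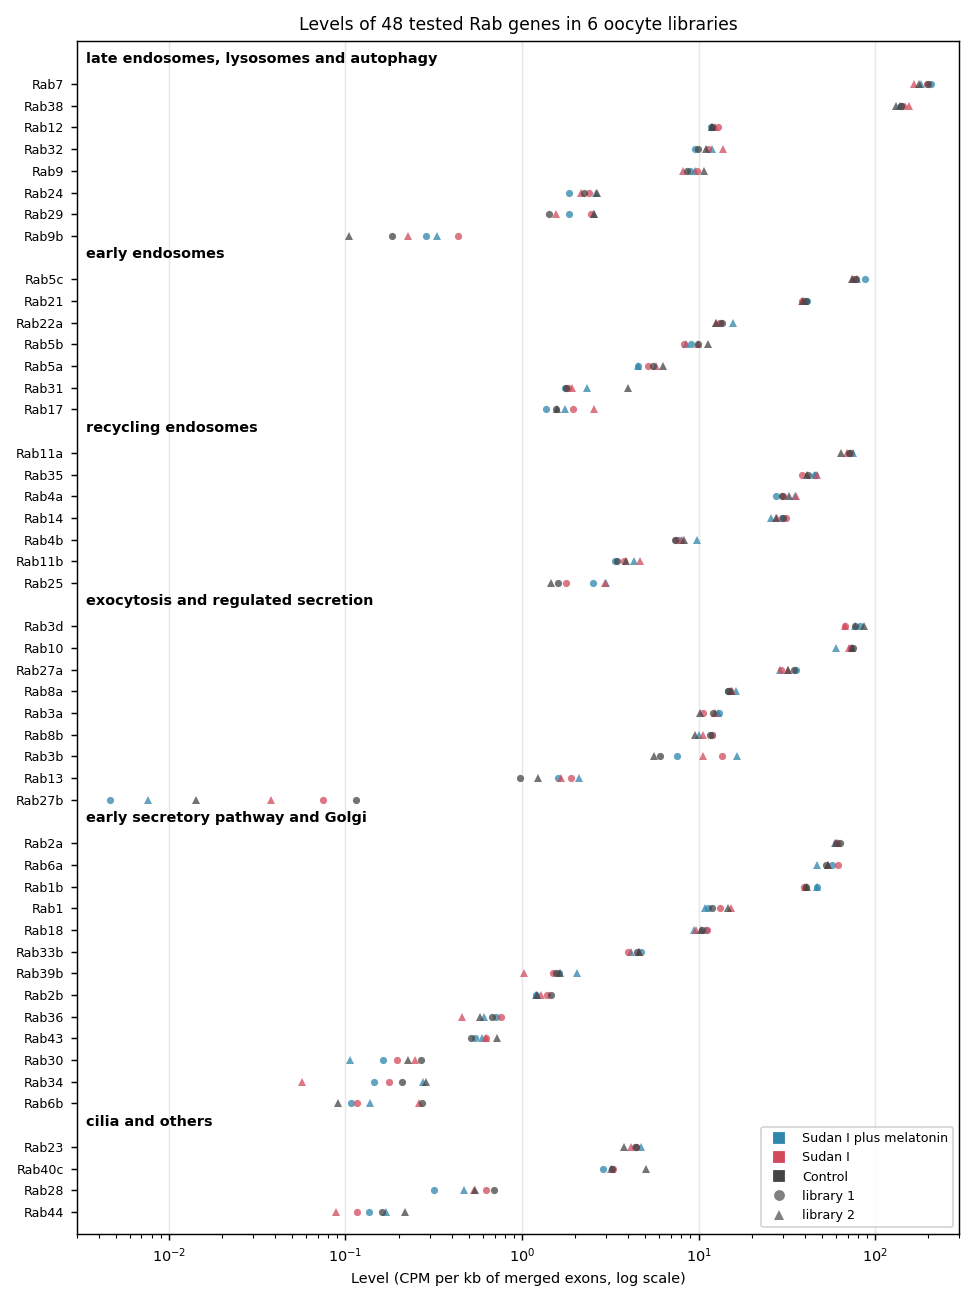
Level of each of the 48 tested Rab genes in every library (x axis, CPM per kb of merged exons, log scale; points are libraries, colours the 3 groups), grouped by the compartment each Rab is best known for. Rab7 and Rab38 stand above the rest, and the members reach down to Rab27b at a mean of 0.0424 CPM per kb.

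Rabs of late endosomes and lysosomes made up 32.4% ± 0.738 (SD over 6 libraries) of the summed level per kb, the largest share of the 6 role groups. That order depended on the division by length: in CPM without length, the exocytosis and recycling endosome groups both summed higher. Rab7, which directs late endosomes to lysosomes, was the most abundant member. It stood at 208 and 182 CPM per kb in the melatonin libraries, 198 and 166 in the Sudan I libraries, and 200 and 178 in the control libraries. The groups overlapped, and 98.8% of the 14003 genes had a lower mean. Rab38, best known for cargo delivery to melanosomes and other lysosome-related organelles, came next. Its levels were 140 and 139 CPM per kb with melatonin, 144 and 156 with Sudan I, and 140 and 131 in control. Both Sudan I libraries were above the other 4, yet the log2 difference between Sudan I and control was 0.15 (95% interval -0.07 to 0.37). Neither gene overlapped its lower neighbour in the order: the lowest Rab7 library was at 166 and the highest Rab38 library at 156, and the lowest Rab38 library was at 131 and the highest Rab5c library at 87.6. Rab32, the closest relative of Rab38, averaged 11.3 CPM per kb, and Rab12, which acts in the breakdown of the transferrin receptor, averaged 12.1 ± 0.385. The remaining members of the group, Rab9, Rab24, Rab29 and Rab9b, were at 9.30 CPM per kb or less.

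Early endosome Rabs made up 13.2% of the summed level. Rab5c, a Rab5 protein of early endosome fusion, averaged 78.2 ± 5.11 CPM per kb (SD, n = 6), with 87.6 and 79.3 in the melatonin libraries, 75.5 and 74.7 in the Sudan I libraries, and 78.2 and 73.7 in the control libraries. Both melatonin libraries were above the other 4, and the log2 difference from Sudan I was 0.15 (95% interval -0.07 to 0.38). Rab21, which acts in integrin uptake, was among the steadiest members at 39.7 ± 1.10 CPM per kb. Rab22a, a Rab of early endosomes and sorting, averaged 13.5 ± 1.18.

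Recycling Rabs made up 16.6% of the summed level. Rab11a, the main Rab of the recycling endosome, averaged 70.9 ± 3.78 CPM per kb, with 73.3 and 75.4 in the melatonin libraries, 72.0 and 69.4 in the Sudan I libraries, and 71.0 and 64.4 in the control libraries. Its relatives Rab11b and Rab25 averaged 3.91 and 2.21. Rab35, which returns cargo to the plasma membrane, averaged 43.2 ± 3.15, and Rab4a, of fast recycling, averaged 31.7 ± 3.33. Rab14, which acts between the Golgi and endosomes, depended on the length used: it averaged 28.6 CPM per kb of merged exons and 77.8 per kb of its longest annotated transcript.

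Rabs of exocytosis held 20.2% of the summed level, most of it in Rab3d and Rab10. Rab3d, known from secretory granules of exocrine cells, averaged 76.4 ± 7.69 CPM per kb. Rab10, which carries Golgi vesicles to the plasma membrane, averaged 70.8 ± 5.43, with 1 low library, melatonin library 2 at 60.0, against 70.9 to 74.4 in the other 5. Rab27a averaged 32.2 ± 2.77 and Rab3a 11.8 ± 1.22, so the Rab3 gene best known in oocytes was not the highest of its family. In the early secretory group, which held 16.8%, Rab2a and Rab1b, of traffic between endoplasmic reticulum and Golgi, averaged 60.9 ± 1.28 and 42.6 ± 3.34, and Rab6a, of the Golgi, averaged 54.5 ± 4.76. Of the tested members, 18 share exonic bases with another annotated gene, such as Rab6a with Mrpl48 on the opposite strand (708 bases) and Rab24 with Prelid1 (1258 bases), and the sources do not say whether counting used the strand. The last group held 0.751%: Rab23, an inhibitor of Hedgehog signalling, averaged 4.31 CPM per kb, Rab40c, of a ubiquitin ligase, 3.47, and Rab28, of photoreceptor cilia, 0.531. Several neighbours could not be ordered: Rab5c, Rab3d, Rab11a and Rab10 followed each other within their spread between libraries.

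The 10 members that were not tested had at most 11 counts in any library. They were Rab33a, Rab20, Rab40b, Rab37, Rab19, Rab3c, Rab15, Rab26, Rab39 and Rab42. Rab39 and Rab42 had 0 counts in all 6 libraries. Rab26 had 1 count in all, and it overlaps Traf7 on the same strand. For the 12 members that averaged 100 CPM or more, the coefficient of variation over all 6 libraries of the 3 groups was 2.10% to 10.1%. Of the 31 with at least 10 CPM, 29 had a coefficient of variation under 15%.

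Within families of close relatives, 1 gene usually held most of the RNA. Of 13 families with 2 or more rows in the table, the same gene led in all 6 libraries in 13. The leader held over 90% of the family's level per kb in every library in 8 families, and over 75% in 10. Rab27a held 99.9% of the Rab27 level, Rab6a 99.7% of Rab6, Rab2a 97.9% of Rab2 and Rab11a 94.8% of Rab11. Rab5c held 84.0% ± 2.19 (SD, n = 6), Rab4a 79.6% ± 1.29 and Rab1b 76.7% ± 3.55. The Rab8 pair, which acts in exocytosis and ciliary traffic, was the most even, with Rab8a at 58.3% ± 3.04. Close relatives share sequence, and how the authors' counting treated reads that match both is not given in the sources used here.

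**Figure D2:**
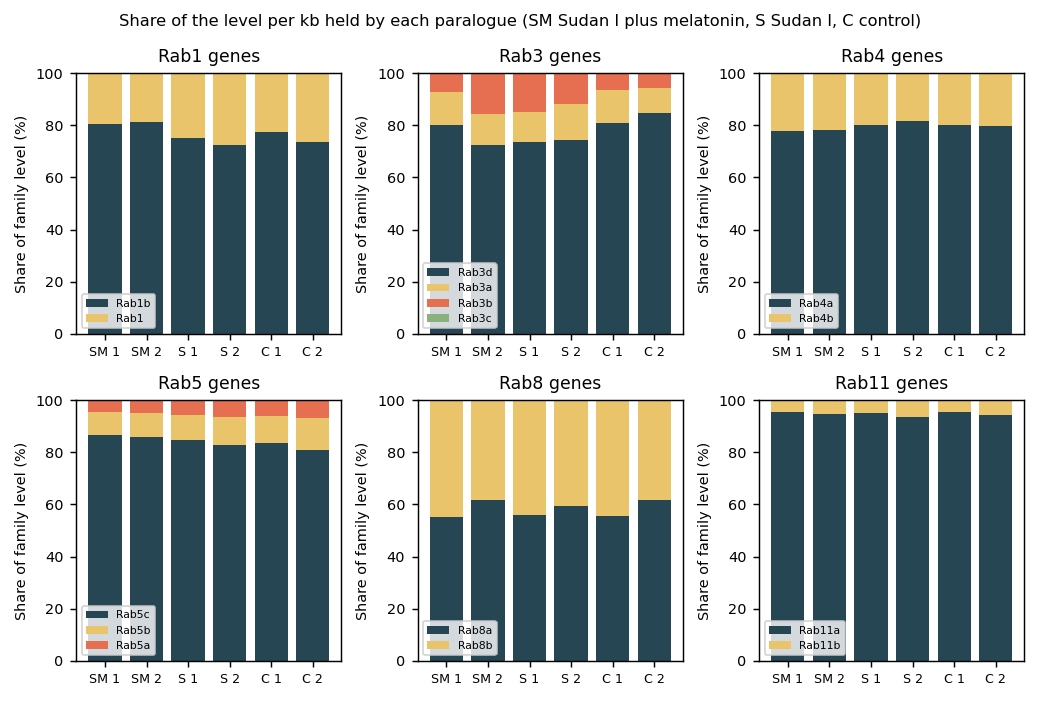
Share of a family's summed level per kb held by each gene (y axis, %) in each library, for 6 Rab families. The leading gene is the same in all 6 libraries of every panel, and the Rab3b share of the Rab3 panel is 7.35% and 15.5% with melatonin, 14.8% and 11.7% with Sudan I, and 6.31% and 5.48% in control.

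The Rab3 family has 4 rows in the table, at very different levels. Rab3d led with 77.7% ± 4.85, Rab3a followed with 12.1% ± 1.30, Rab3b held 10.2% ± 4.42, and Rab3c, with 0 to 10 counts per library, held 0.0116%. Their promoter regions are shown because they cover the highest member, the member that varied most between groups, and a member near 0. Each runs from 250 bases before to 50 bases after the outermost annotated start, from RefSeq on build GRCm38.p6, read 5′ to 3′ along the gene, with every CG pair in capitals. They lie at chr9:21918134-21918433 (minus strand), chr8:70754453-70754752 (plus), chr4:108878820-108879119 (plus) and chr13:110280157-110280456 (minus).
Rab3d: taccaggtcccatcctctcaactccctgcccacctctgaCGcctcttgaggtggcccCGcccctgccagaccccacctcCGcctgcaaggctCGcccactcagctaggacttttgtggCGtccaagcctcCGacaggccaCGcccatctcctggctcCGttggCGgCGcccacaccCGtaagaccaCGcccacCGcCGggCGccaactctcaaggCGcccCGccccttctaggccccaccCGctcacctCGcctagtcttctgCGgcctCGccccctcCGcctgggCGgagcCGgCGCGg
Rab3a: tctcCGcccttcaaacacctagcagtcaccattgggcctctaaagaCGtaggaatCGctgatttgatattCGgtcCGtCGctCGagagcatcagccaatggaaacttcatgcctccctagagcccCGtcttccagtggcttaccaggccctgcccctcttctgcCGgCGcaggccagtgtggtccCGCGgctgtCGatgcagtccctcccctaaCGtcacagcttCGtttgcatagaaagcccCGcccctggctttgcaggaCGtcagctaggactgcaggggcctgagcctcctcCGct
Rab3b: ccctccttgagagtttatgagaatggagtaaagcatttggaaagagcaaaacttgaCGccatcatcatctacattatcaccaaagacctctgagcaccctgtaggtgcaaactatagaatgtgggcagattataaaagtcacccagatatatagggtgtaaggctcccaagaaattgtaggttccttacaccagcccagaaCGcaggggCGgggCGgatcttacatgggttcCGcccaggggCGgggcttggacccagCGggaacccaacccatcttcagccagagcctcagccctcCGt
Rab3c: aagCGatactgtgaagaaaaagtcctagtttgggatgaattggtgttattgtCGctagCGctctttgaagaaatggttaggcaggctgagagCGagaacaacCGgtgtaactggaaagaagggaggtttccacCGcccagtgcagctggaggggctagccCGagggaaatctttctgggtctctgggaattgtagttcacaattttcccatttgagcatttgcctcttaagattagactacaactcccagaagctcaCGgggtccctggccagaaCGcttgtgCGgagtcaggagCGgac
The Rab3d sequence holds 26 CG pairs, that of Rab3a 18, that of Rab3b 8 and that of Rab3c 11. Promoters were listed for 40 of the 48 tested members and 8 of the 10 not tested. The tested members had a median of 23 CG pairs, those not tested a median of 13.5, and all 27025 listed genes a median of 7. At least 15 pairs stood in 77.5% of the promoters of tested members, in 50% of those not tested and in 35.2% of all. The tested members are the expressed ones, and promoters of expressed genes in general were not set beside them. The core of the dioxin response element, GCGTG on either strand, stood in 18 of the 40 (45%), against 32.5% of all promoters. It stood in 3 of the 8 not tested (37.5%). Those letters hold a CG pair, and promoters were not matched for their number of CG pairs, which was higher in the tested members. The letters TGACNNNGC of the antioxidant response element, on either strand, stood in 7 of the 40 (17.5%), against 12.4% of all. Neither match stood in the Rab3b or Rab3a window, while that of Rab3d held the dioxin core and that of Rab3c the antioxidant letters. A match of letters is a description of the sequence only.

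Setting Sudan I oocytes against control oocytes addresses the effect of the dye. No Rab gene passed the test: 0 of 48 had an adjusted p under 0.05, against 0.00708% of all tested genes (edgeR quasi-likelihood F test, Benjamini-Hochberg adjustment over 14124 genes), and DESeq2 and limma-voom also called 0. At an unadjusted p under 0.05 there were 2 of 48 (4.17%), against 3.16% of all genes, with 2 in DESeq2 and 2 in limma-voom. A log2 fold change above 0 was found in 23 of 48 (47.9%), against 49.4% of all genes. The libraries of the groups did not overlap for 17 members (35.4%), against 32% of all genes. The median log2 fold change was -0.0063 for the Rab genes and -0.0024 for all genes. The 95% interval held no change as large as 1 log2 unit in either direction for 37 members (77.1%), against 69.9% of all genes.

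Setting melatonin-treated exposed oocytes against oocytes with Sudan I alone addresses the effect of the hormone. Again 0 of 48 members passed, against 0% of all tested genes, and DESeq2 and limma-voom called 0. At an unadjusted p under 0.05 there were 4 of 48 (8.33%), against 3.83% of all genes, with 3 in DESeq2 and 2 in limma-voom. A log2 fold change above 0 was found in 23 of 48 (47.9%), against 48.8%. The libraries did not overlap for 19 members (39.6%), against 30.7%. Rab27b is among these 19 and among the 4 above. It met the filter on low counts only through control library 1 and Sudan I library 1, which favoured a low value with melatonin. The median was -0.0088 for the Rab genes and -0.0060 for all genes. A change of 1 log2 unit was excluded by 38 intervals (79.2%), against 70.1% of all genes.

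Sudan I plus melatonin was also compared with control, a contrast that shares libraries with both others. Here too 0 of 48 passed, against 0.00708% of all tested genes, and DESeq2 and limma-voom called 0. At an unadjusted p under 0.05 there were 5 of 48 (10.4%), against 4.6%, with 4 in DESeq2 and 4 in limma-voom. A log2 fold change above 0 was found in 23 of 48 (47.9%), against 48.9%, and non-overlapping libraries in 19 (39.6%), against 33.5%. Rab27b, whose low value with melatonin was favoured by the filter on low counts, is again among these 19 and among the 5 above. The median was -0.016 for the Rab genes and -0.0051 for all genes, and 36 intervals excluded a change of 1 log2 unit. No role group had a called member in any comparison.

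**Figure D3:**
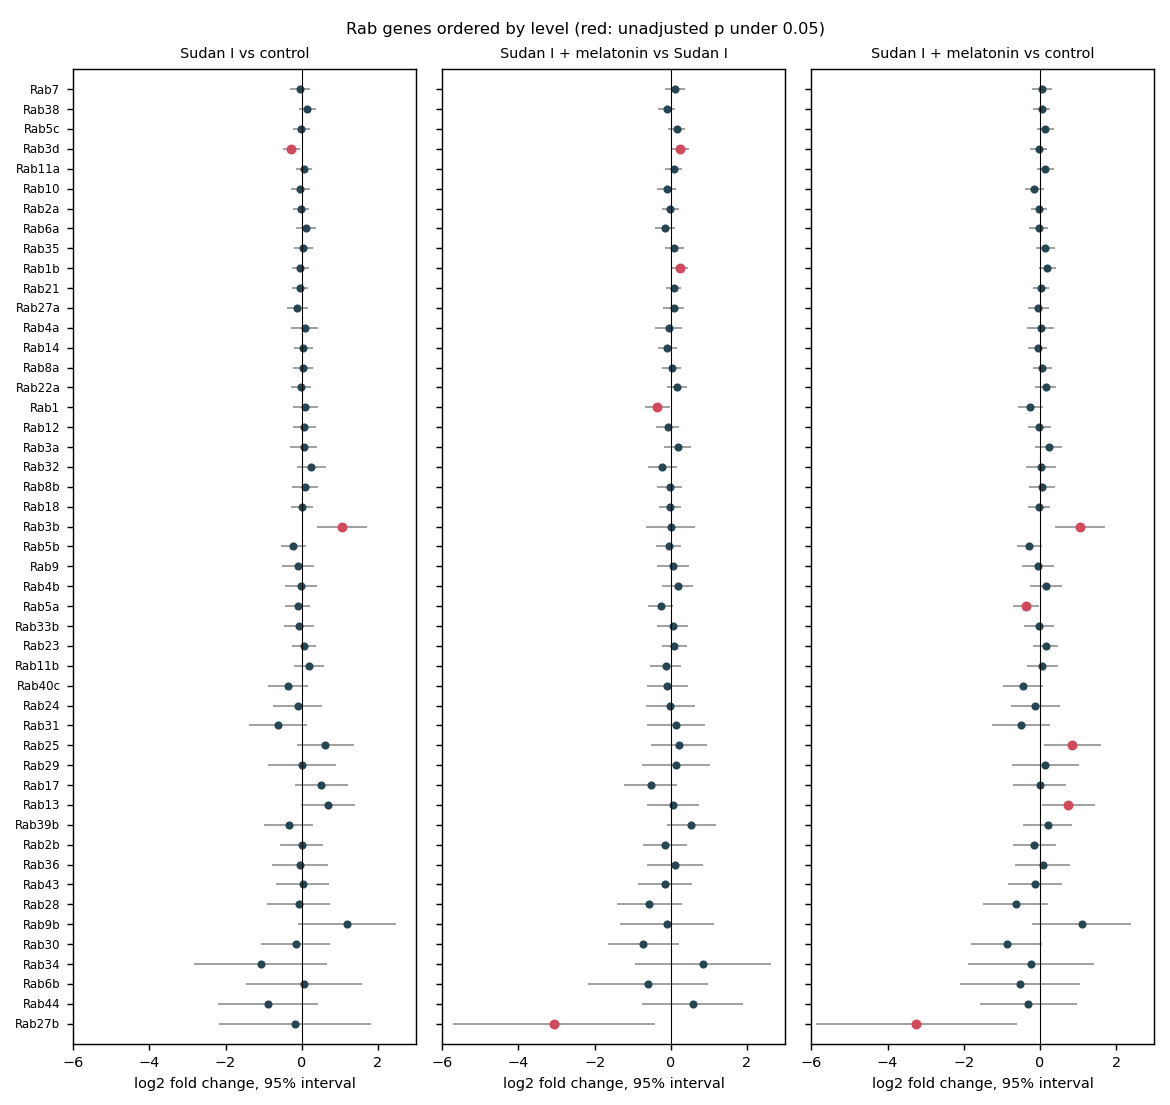
Log2 fold change of each tested Rab gene (points) with its 95% interval (lines) in the 3 comparisons, ordered from the highest level per kb at the top to the lowest at the bottom; red points have an unadjusted p under 0.05. Points of abundant genes lie close to 0 and intervals widen towards the bottom, where counts are low.

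The 8 members with an unadjusted p under 0.05 in any comparison are given one by one, none of them past the adjusted threshold. Rab3b, a Rab3 of regulated secretion at chr4:108879063-108943324 on the plus strand of GRCm38, had the largest difference among members that averaged 10 CPM or more. It stood at 26.7 and 58.2 CPM in the Sudan I plus melatonin libraries, 48.1 and 37.2 CPM in the Sudan I libraries, and 21.2 and 19.7 CPM in the control libraries. All 4 exposed libraries were above both control libraries, and melatonin library 1 was the nearest to them. The log2 fold change was 1.06 (SE 0.30) for Sudan I versus control, with an edgeR adjusted p of 0.9999, and 1.06 (SE 0.30) for Sudan I plus melatonin versus control, with an edgeR adjusted p of 0.9562. Between the exposed groups it was -0.01 (SE 0.29), and its direction turned on 1 library: it was -0.68 without melatonin library 2 and 0.45 without melatonin library 1. For melatonin versus control the value was 0.39 without melatonin library 2 and 1.51 without melatonin library 1. Inhbb, an inhibin subunit gene among the granulosa markers, stood at 19.4 and 63.6 CPM with melatonin, 36.4 and 4.33 CPM with Sudan I, and 15.1 and 4.38 CPM in control. Like Rab3b, Inhbb was higher in melatonin library 2 than in library 1 and higher in Sudan I library 1 than in library 2. Unlike Rab3b, it was below both control libraries in Sudan I library 2. Inhbb was picked after its values were seen. Inha, Inhba, Fst, Hsd17b1 and Amh had the same order of libraries within the exposed groups, and the rest of the granulosa markers did not. Kitl stood at 11.7 and 6.33 CPM with melatonin, and Foxl2 at 3.22 and 3.74 CPM with Sudan I. The part of granulosa RNA in the Rab3b values was not tested. When no gene was filtered out for low counts, Rab3b was called in both comparisons with control, with edgeR adjusted p of 1.17e-06 for Sudan I and 1.74e-06 for Sudan I plus melatonin. That fit called 88 and 93 of 18913 genes in those comparisons, and DESeq2 with the filter gave adjusted p of 0.0685 and 0.0865. An antisense gene, 8030443G20Rik, shares 317 exonic bases with Rab3b and had 5 and 5 counts with melatonin, 19 and 17 with Sudan I, and 8 and 5 in control, while Rab3b had 465 to 1426.

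Rab3d, the highest Rab3 gene, was lower in Sudan I oocytes by a small amount that did not pass the test. It stood at 346 and 324 CPM with melatonin, 285 and 282 CPM with Sudan I, and 324 and 362 CPM in control. Both Sudan I libraries were below the other 4, while the melatonin and control libraries overlapped. The log2 fold change was -0.28 (SE 0.10, edgeR adjusted p = 0.9999) for Sudan I versus control, 0.24 (SE 0.10, edgeR adjusted p = 0.9943) for melatonin versus Sudan I, and -0.04 (SE 0.10) for melatonin versus control. The first and second of these share the Sudan I libraries, so opposite signs are not independent of each other. As a share of the Rab3 level, Rab3d held 80.0% and 72.4% with melatonin, 73.7% and 74.5% with Sudan I, and 81.0% and 84.6% in control, with the lowest share in melatonin library 2. Rab3a, the Rab3 gene of cortical granules, stood at 29.1 and 28.6 CPM with melatonin, 23.4 and 27.6 CPM with Sudan I, and 26.8 and 22.6 CPM in control. Its Sudan I and control libraries overlapped.

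The Rab1 pair, which acts in transport from the endoplasmic reticulum to the Golgi, had opposite differences in the melatonin libraries, neither of which passed the test. Rab1b stood at 106 and 107 CPM with melatonin, 89.7 and 91.6 CPM with Sudan I, and 92.5 and 93.6 CPM in control. Rab1, the gene also called Rab1a, stood at 43.2 and 41.5 CPM with melatonin, 50.1 and 58.2 CPM with Sudan I, and 45.5 and 55.7 CPM in control. Both melatonin libraries were the highest for Rab1b and the lowest for Rab1. On the log2 scale, the difference of melatonin from Sudan I was 0.23 (SE 0.10, edgeR adjusted p = 0.9943) for Rab1b and -0.35 (SE 0.15, edgeR adjusted p = 0.9943) for Rab1. The Rab1b share of the pair was 80.4% and 81.1% with melatonin, 74.97% and 72.47% with Sudan I, and 77.3% and 73.8% in control. Versus control, the melatonin differences were 0.19 (SE 0.10) for Rab1b and -0.26 (SE 0.15) for Rab1.

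Rab5a, the best studied Rab of early endosome fusion, stood at 23.9 and 24.0 CPM with melatonin, 27.3 and 30.4 CPM with Sudan I, and 29.0 and 33.0 CPM in control. Both melatonin libraries were the lowest, and the Sudan I and control libraries overlapped. The log2 fold change for melatonin versus control was -0.38 (SE 0.15, edgeR adjusted p = 0.9562). Rab25, a Rab11 relative of epithelial recycling, stood at 4.20 and 4.98 CPM with melatonin, 2.97 and 4.91 CPM with Sudan I, and 2.69 and 2.44 CPM in control. Rab13, a Rab of tight junction traffic, stood at 3.66 and 4.82 CPM with melatonin, 4.36 and 3.83 CPM with Sudan I, and 2.23 and 2.82 CPM in control. For both genes all 4 exposed libraries were above both control libraries. Melatonin versus control gave 0.84 (SE 0.34) for Rab25 and 0.74 (SE 0.32) for Rab13 with an edgeR adjusted p of 0.9562 each, and Sudan I versus control gave 0.62 (SE 0.34) and 0.69 (SE 0.32) with an edgeR adjusted p of 0.9999 each.

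Rab27b, which docks secretory granules, was the lowest tested member, with 1 and 2 counts in the melatonin libraries, 19 and 9 in the Sudan I libraries, and 27 and 4 in the control libraries. Both melatonin libraries were below all others, and the control libraries were far apart. The ratio of its pooled level with melatonin to that with Sudan I was 0.110 (exact 95% counting interval 0.0215 to 0.357), and to that in control 0.104 (0.0204 to 0.334). These intervals cover counting error only and leave out the spread between libraries. Rab27b met the filter on low counts only through control library 1 and Sudan I library 1, so that selection favoured a low value with melatonin, and it did not pass the stricter filter; the ratios are a description of these libraries. The edgeR fit gave -3.08 (SE 1.20, edgeR adjusted p = 0.9943) and -3.25 (SE 1.19, edgeR adjusted p = 0.9562) on the log2 scale, and without control library 1 the difference of melatonin from control was -1.13. Rab27a, the abundant gene of the pair, stood at 138 and 112 CPM with melatonin, 114 and 125 CPM with Sudan I, and 135 and 124 CPM in control, with all groups overlapping.

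**Figure D4:**
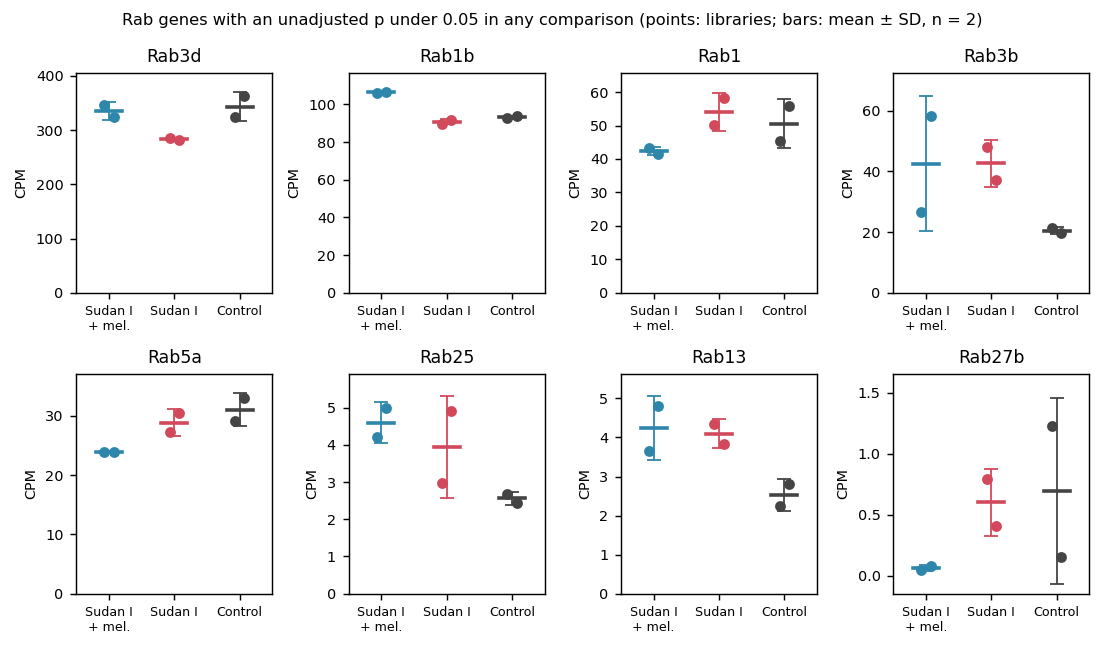
CPM of the 8 Rab genes with an unadjusted p under 0.05 in any comparison (y axis, from 0 except where an SD bar reaches below it; points are libraries, horizontal lines the mean and bars the SD of 2 libraries). Rab3b stands at 19.7 to 21.2 CPM in control and at 26.7 to 58.2 CPM in the 4 exposed libraries, and none of the 8 passed the adjusted threshold.

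The genes that load, switch off and read Rabs were examined as 4 lists, and 0 members were called in any list or comparison by edgeR. Of all 14124 tested genes, edgeR called 1 for Sudan I versus control, 0 for melatonin versus Sudan I and 1 for melatonin versus control. In the list for prenylation and GDP dissociation inhibition, all 7 genes were tested, and 0 had an unadjusted p under 0.05 in the 3 comparisons. The shares of all tested genes were 3.16%, 3.83% and 4.6% in the same order, so 0 of 7 tells little about this list. Gdi2, an inhibitor that extracts Rabs from membranes, was the most abundant of them, at 412 and 437 CPM with melatonin, 457 and 473 CPM with Sudan I, and 418 and 448 CPM in control. Its Sudan I libraries were the highest, with a log2 fold change of 0.10 (SE 0.10) versus control. Rabif, also known as Mss4, was kept in this list although it is neither a prenylation gene nor a GDP dissociation inhibitor. It ranged from 27.2 to 68.4 CPM, and both of those ends were control libraries. Chml, an escort protein for prenylation, stood at 7.31 and 6.49 CPM with melatonin, 9.63 and 8.07 CPM with Sudan I, and 8.66 and 10.4 CPM in control, with -0.47 (SE 0.23) for melatonin versus control.

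Of 53 exchange factor genes, 52 were tested. An unadjusted p under 0.05 was found for 2 of them (3.85%, against 3.16% of all tested genes) in Sudan I versus control, 1 (1.92%, against 3.83%) in melatonin versus Sudan I and 1 (1.92%, against 4.6%) in melatonin versus control. The subunits of the Rab3 GTPase-activating complex, which also acts as the exchange factor of Rab18, were the most abundant, with Rab3gap1 at 531 ± 20.6 CPM and Rab3gap2 at 306 ± 8.87 CPM (SD, n = 6). Dennd3, an exchange factor of Rab12, stood at 29.99 and 40.0 CPM with melatonin, 52.8 and 33.5 CPM with Sudan I, and 27.7 and 23.9 CPM in control. All 4 exposed libraries were above control, and the log2 fold change for Sudan I versus control was 0.74 (SE 0.22, edgeR adjusted p = 0.9999), while Rab12 itself gave 0.07 (SE 0.13). Trappc3, a core subunit of the TRAPP complexes that activate Rab1, stood at 49.3 and 49.4 CPM with melatonin, 41.2 and 38.3 CPM with Sudan I, and 41.0 and 39.1 CPM in control. Both melatonin libraries were the highest, with 0.31 (SE 0.13, edgeR adjusted p = 0.9943) versus Sudan I and 0.30 (SE 0.13, edgeR adjusted p = 0.9562) versus control.

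Of 39 genes for GTPase-activating proteins, 36 were tested. An unadjusted p under 0.05 was found for 1 of them (2.78%, against 3.16% of all tested genes) in Sudan I versus control, 0 (against 3.83%) in melatonin versus Sudan I and 1 (2.78%, against 4.6%) in melatonin versus control. Tbc1d14, of autophagy and recycling endosomes, and Tbc1d15, which acts on Rab7, were the most abundant at 1037 ± 64.8 and 763 ± 46.8 CPM. For Tbc1d14 all groups overlapped. For Tbc1d15 the melatonin libraries overlapped both other groups. Both of its Sudan I libraries (809.4 and 791.0 CPM) were above both control libraries (773.5 and 701.4 CPM), with a log2 fold change of 0.12 (SE 0.10). Tbc1d31 stood at 8.99 and 6.86 CPM with melatonin, 6.66 and 7.44 CPM with Sudan I, and 9.76 and 10.8 CPM in control, with -0.55 (SE 0.23, edgeR adjusted p = 0.9999) for Sudan I versus control. Rabgap1, which acts on Rab6, stood at 66.1 and 58.2 CPM with melatonin, 72.7 and 68.9 CPM with Sudan I, and 70.2 and 91.1 CPM in control, with -0.38 (SE 0.14, edgeR adjusted p = 0.9562) for melatonin versus control. Tbc1d23, of endosome to Golgi transport, gave -0.23 (SE 0.15) for melatonin versus Sudan I, with overlapping libraries.

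Of 60 effector genes, 58 were tested. An unadjusted p under 0.05 was found for 2 of them (3.45%, against 3.16% of all tested genes) in Sudan I versus control, 4 (6.9%, against 3.83%) in melatonin versus Sudan I and 2 (3.45%, against 4.6%) in melatonin versus control. Myo5b, the myosin Vb heavy chain that Rab11a recruits, was the most abundant at 952 ± 58.9 CPM, and Rufy1, an effector of Rab4 and Rab14, averaged 343 ± 16.1 CPM. Myo5b stood at 1025 and 864 CPM with melatonin, 994 and 954 CPM with Sudan I, and 904 and 969 CPM in control, with all groups overlapping. Rab11fip2, which links Rab11 to myosin Vb, stood at 7.46 and 7.51 CPM with melatonin, 8.17 and 8.39 CPM with Sudan I, and 12.5 and 10.9 CPM in control. All 4 exposed libraries were below control. The log2 fold change was -0.64 (SE 0.21, edgeR adjusted p = 0.9562) for melatonin versus control and -0.50 (SE 0.21, edgeR adjusted p = 0.9999) for Sudan I versus control. Micall2, an effector of Rab13, stood at 42.1 and 42.8 CPM with melatonin, 31.0 and 25.9 CPM with Sudan I, and 35.9 and 36.4 CPM in control. The groups did not overlap, with 0.58 (SE 0.15, edgeR adjusted p = 0.9943) for melatonin versus Sudan I and -0.35 (SE 0.15, edgeR adjusted p = 0.9999) for Sudan I versus control. Melatonin versus control gave 0.23 (SE 0.14). Micall2 was named for the smallest p of the 58 in melatonin versus Sudan I. That comparison and Sudan I versus control share the Sudan I libraries, so opposite signs are not independent of each other.

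**Figure D5:**
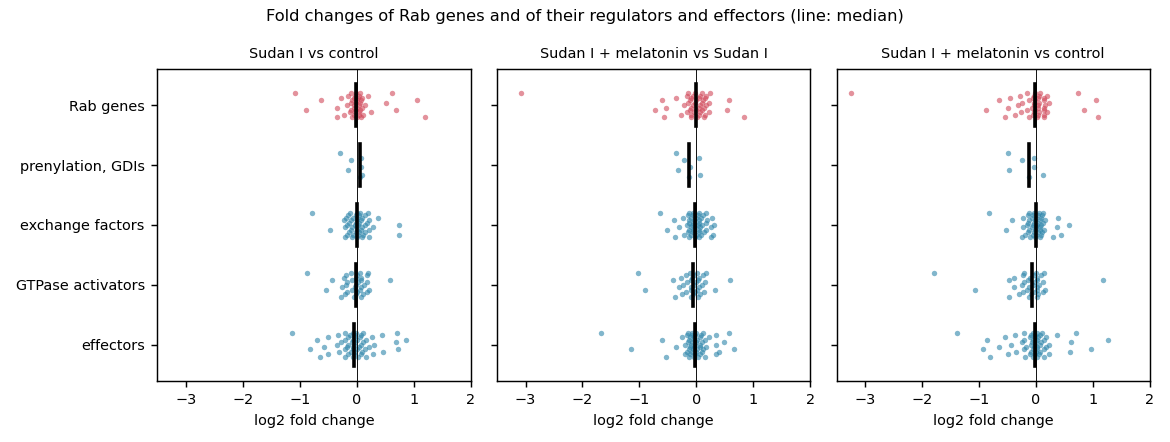
Log2 fold changes (x axis) of the 48 tested Rab genes and of the tested members of the 4 lists of regulators and effectors in the 3 comparisons. Each point is a gene and each black line a median. The highest effector value, 2.1 for Sudan I plus melatonin versus Sudan I, lies beyond the right end of the axis and is not shown. Medians lie between -0.13 and 0.07 in every panel, and 0 of these genes passed the adjusted threshold.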

How the data were processed

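Per the file headers, the authors deposited whole-number read counts per gene symbol, 1 column for each of the 6 libraries. Per the labels' protocols, the libraries followed a standard Illumina preparation; the aligner, counting program, strand setting and genome build are items that the sources used here do not give. Symbols were matched to GENCODE M21 on GRCm38 for positions and lengths, of which 23203 matched directly, 743 as synonyms and 423 not at all; this may not be the build the authors used. In 27 rows a date stands for a symbol, with 0.243% to 0.272% of the counts per library; they stayed in the fit unnamed.

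Counts were fitted in R 4.3.3 with edgeR 4.0.16: filterByExpr (minimum count 10), trimmed mean of M-values (TMM) scaling, 1 mean per group over all 6 libraries, 3 residual degrees of freedom, and the quasi-likelihood F test with Benjamini-Hochberg adjustment over 14124 genes. A gene was called at an adjusted p under 0.05. CPM use TMM-scaled library sizes. DESeq2 1.42.0, limma-voom 3.58.1, other scalings and filters, fits of 2 groups, a replicate block and fits without each library were alternatives. On 3 simulated sets for Sudan I versus control, edgeR called 54% to 64% of genes given a log2 change of 1, and 80% to 84% of those given 2. Under the Benjamini-Hochberg adjustment such shares depend on how many genes change in the sets. They are therefore not the chance of calling a single Rab gene here, where edgeR called 1 of 14124 genes for Sudan I versus control. Rab3b, at a log2 fold change of 1.06 in that comparison, was not called. An exact permutation test of 2 against 2 libraries was not used.

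Named Rab genes are the 3 highest per role group and those with an unadjusted p under 0.05; named regulators are the 2 highest per list and the smallest p per comparison. Other named genes were chosen after their values were seen. Members and lists were chosen with earlier results of these data known. The replicate numbers were not taken as pairs.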

Additional observations from a re-analysis of the deposited data

How the results depend on the processing

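The count of Rab genes called stayed at 0 under other scalings, DESeq2, limma-voom, a stricter filter, fits of 2 groups, the replicate block and every fit without 1 library. Without a filter on low counts it was 1 for Sudan I versus control, 1 for Sudan I plus melatonin versus control and 0 between the exposed groups; the called gene was Rab3b, with log2 fold changes of 1.06 and 1.05 and adjusted p of 1.17e-06 and 1.74e-06, and the cause was not tested. With the replicate block the median log2 fold changes were -0.00147 for Sudan I versus control, -0.017 for melatonin versus Sudan I and -0.022 for melatonin versus control, and no call changed. Libraries with the same title number did not deviate together (correlations of 0.05, 0.07 and -0.06), so those numbers were not taken as pairs. The replicate block used the same title numbers. Column headers of the count table also carry codes whose numbers differ from the titles for some libraries. Sharing between libraries by those codes was not tested, so these checks cannot say that the libraries are unrelated. Rab7, Rab38, Rab5c, Rab3d and Rab11a were also the 5 highest per longest transcript, with 47.3% of that level. Without length they held 38.4%, and the 5 highest were then Rab7, Rab14, Rab3d, Rab10 and Rab38, with 45.3%. Over all tested genes, edgeR called 1, 0 and 1 (Sudan I versus control, melatonin versus Sudan I, melatonin versus control), DESeq2 11, 9 and 10, and edgeR without the filter 88, 67 and 93. Depth limits Rab9b, Rab34, Rab6b, Rab44 and Rab27b most: their 95% intervals reach over 1 log2 unit to each side of the estimate.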
